A study of Homo sapiens with 16 samples.

Results

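The receptors that mark or drive melanoma cell states are described here across the melanoma cell lines A101D and MeWo. They are AXL, MERTK, EGFR, ERBB3, KIT, MET, PDGFRB, FGFR1 and IGF1R, which are receptor tyrosine kinases, and NGFR, which has no kinase and stands for the neural crest state. The members were chosen by symbol and matched to the Ensembl identifiers of the deposited tables. All 10 members were found among 60676 gene identifiers, and all 10 passed the low-count filter that left 21569 genes to test. By GENCODE v29 (GRCh38), whole genes lie at chr19:41219203-41261766 (AXL), chr2:111898479-112029561 (MERTK), chr17:49495293-49515017 (NGFR), chr7:55019021-55211628 (EGFR), chr12:56076799-56103505 (ERBB3), chr4:54657918-54740715 (KIT), chr7:116672390-116798386 (MET), chr5:150113837-150155872 (PDGFRB), chr8:38400215-38468834 (FGFR1) and chr15:98648539-98964530 (IGF1R), all protein coding. The libraries were made from total RNA, 8 for A101D and 8 for MeWo. The labels give A101D the phenotype of methionine dependence and MeWo that of methionine independence, so each phenotype is represented by 1 cell line. The growth protocol names a medium with methionine and one with homocysteine in its place, and no label ties a library to a medium. Replicates 1-4 and 5-8 of each line were therefore compared as numbered sets, with no medium named. Nothing in the labels says whether the libraries came from separate cultures, and p-values then measure only the spread between these libraries, which may be technical.

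Receptor tyrosine kinases are single-pass membrane proteins that dimerise when a ligand binds, phosphorylate each other's tails and recruit adaptors that feed the RAS-MAPK and PI3K pathways. In melanoma, KIT and ERBB3 are usually found with the pigment cell programme, whereas AXL, EGFR and PDGFRB are known from dedifferentiated, drug-tolerant cells, and NGFR from a neural crest-like state. MITF and SOX10, transcription factors of pigment cells, are the usual reference points for these states.

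Promoter sequences came from RefSeq (GRCh38.p14), and 250 bases before each annotated start were searched on both strands in 9 windows of 7 members (not FGFR1, NGFR and ERBB3). The promoters of KIT and PDGFRB are shown because these genes were close to undetected in one of the lines. AXL start 2 and EGFR start 2 are shown because they held letters associated with the state factors, and AXL start 1 is shown as the upstream window of the same gene. Bases that GENCODE v29 places in exons were left out, and capitals mark every motif match in the bases printed. The windows are chr4:54657707-54657917 for KIT on the plus strand, chr5:150155873-150156095 for PDGFRB on the minus strand, chr19:41218973-41219202 and chr19:41226505-41226754 for AXL on the plus strand, and chr7:55109589-55109722 for EGFR on the plus strand.
KIT: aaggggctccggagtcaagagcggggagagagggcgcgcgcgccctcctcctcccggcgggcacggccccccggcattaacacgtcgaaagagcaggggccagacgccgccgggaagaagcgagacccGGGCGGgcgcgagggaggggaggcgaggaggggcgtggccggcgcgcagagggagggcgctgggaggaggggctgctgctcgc
PDGFRB: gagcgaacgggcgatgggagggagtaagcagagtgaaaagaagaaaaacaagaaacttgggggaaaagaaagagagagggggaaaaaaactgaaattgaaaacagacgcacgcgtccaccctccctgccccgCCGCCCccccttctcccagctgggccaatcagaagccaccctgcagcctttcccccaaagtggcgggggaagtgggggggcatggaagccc
AXL start 1: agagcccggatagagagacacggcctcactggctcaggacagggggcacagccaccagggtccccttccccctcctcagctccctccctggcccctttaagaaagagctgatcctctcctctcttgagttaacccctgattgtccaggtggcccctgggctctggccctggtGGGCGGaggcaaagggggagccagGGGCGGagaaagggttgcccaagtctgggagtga
AXL start 2: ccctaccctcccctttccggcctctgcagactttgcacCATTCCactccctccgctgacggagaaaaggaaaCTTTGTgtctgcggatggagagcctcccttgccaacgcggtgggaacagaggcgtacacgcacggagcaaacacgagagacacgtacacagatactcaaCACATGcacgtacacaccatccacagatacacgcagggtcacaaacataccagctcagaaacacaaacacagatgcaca
EGFR start 2: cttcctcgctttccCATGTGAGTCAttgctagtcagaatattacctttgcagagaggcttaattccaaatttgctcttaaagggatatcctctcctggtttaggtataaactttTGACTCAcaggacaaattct

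The motifs searched were CATGTG (the core of the M-box bound by MITF), CACGTG (an E-box), TGANTCA (AP-1), GGAATG (TEAD), ACAAAG (SOX) and GGGCGG (the GC box). Of 35116 promoter windows of the same length, 9.42% held CATGTG, 6.34% CACGTG, 6.57% TGANTCA, 11.9% GGAATG, 13.7% ACAAAG and 42.6% GGGCGG. AXL start 2 held CATGTG as CACATG, 79 bases before the start, together with a GGAATG match and an ACAAAG match. EGFR start 2 held AP-1 matches 232 and 136 bases before the start, and the first of them overlaps a CATGTG match. It also held a GGAATG match, as CATTCC, 114 bases before the start, which lies in the exon bases not printed. In the KIT and PDGFRB windows 1 GC box each was found and none of the other motifs. A match here is a description of letters and not a binding site.

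The first comparison asked how the receptors differed between A101D and MeWo. KIT, FGFR1, MERTK, AXL and MET were higher in MeWo, and PDGFRB, EGFR, ERBB3, NGFR and IGF1R were higher in A101D. All 10 members passed the test (limma-voom, adjusted p under 0.05 after Benjamini and Hochberg over all genes tested), 5 in each direction, against 78.5% of all genes tested (37.5% higher and 41% lower). For all 10, every library of one line lay outside the range of the other, as it did for 55.2% of all genes. These shares show that most genes differed between the lines, so the count of members says little about the receptors as a list. By size, 3 of the 10, KIT, FGFR1 and PDGFRB, differed more than 16-fold, which 9.09% of all genes tested did. All 3 rest on few counts in their lower line, where KIT lay near the low-count filter. The members were also chosen with earlier results of these data known, so this share is a description and no test of the list. The members' median log2 difference was 0.12 (MeWo minus A101D), beside -0.04 over all genes. It was 0.38 within replicates 1-4 and -0.13 within replicates 5-8. In bulk RNA, fewer cells expressing a gene and less RNA per cell cannot be told apart.

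**Figure D1:**
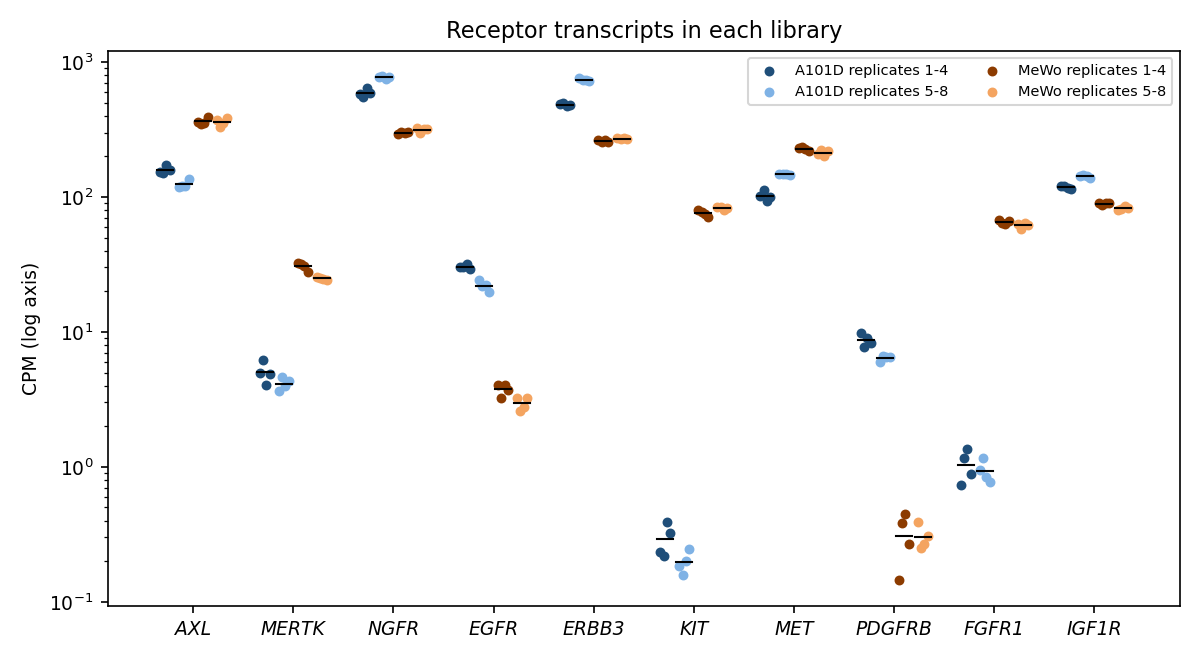
CPM (counts per 1e6, log axis) of each receptor in the 16 libraries, coloured by line and replicate set; bars are means of 4 libraries. KIT and FGFR1 lie at or below 1.35 CPM in every A101D library, and PDGFRB lies at or below 0.445 CPM in every MeWo library.

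KIT, the receptor for stem cell factor and a gene of the pigment cell lineage, had the widest gap of the 10. It lay between 70.9 and 84.1 CPM in MeWo with a median of 79.9, and between 0.158 and 0.391 CPM in A101D with a median of 0.227. CPM are counts per 1e6 on library sizes scaled by trimmed mean of M-values (TMM). The A101D values rest on 6 to 11 counts per library, 66 in all. The log2 difference was 8.32 ± 0.16 (SE; n = 8 per line; limma adjusted p = 4.71e-18). The ratio of summed counts, scaled for library size, was 329, with an exact 95% interval of 259 to 426 that covers counting error only.

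FGFR1, a receptor for fibroblast growth factors, had the same orientation. Its level lay between 58.1 and 67.9 CPM in MeWo, with a median of 63.6, and between 0.731 and 1.35 CPM in A101D, with a median of 0.918. The log2 difference was 6.04 ± 0.10 (limma adjusted p = 1.64e-18). The ratio of summed counts, scaled for library size, was 65.6 (exact 95% interval 58.1 to 74.4). FGFR1 in A101D rests on 28 to 44 counts per library, 265 in all. LETM2 and AC087623.1 share 0.997% and 1.127% of its exon bases on the opposite strand and had 1521 and 150 counts over all libraries. Without the strand setting, reads from shared bases cannot be told apart.

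PDGFRB, the beta receptor for platelet-derived growth factor and a gene of mesenchymal cells, went the other way. It lay between 6.01 and 9.80 CPM in A101D (median 7.21) and between 0.144 and 0.445 CPM in MeWo (median 0.289, 82 counts over 8 libraries). The log2 difference was -4.61 ± 0.22 (limma adjusted p = 1.73e-12). Scaled for library size, A101D held 24.9 times the summed counts of MeWo (exact 95% interval 20 to 31.5). Of the 7 fibroblast markers, 3 reached a mean of 1 CPM in A101D: COL1A2 at 776 CPM, LUM at 1.69 and PDGFRA at 1.53. COL1A1, COL3A1, DCN and THY1 were at 0.780 CPM or less there. The summed fibroblast list lay between 579 and 1031 CPM in A101D, mostly COL1A2, and between 76.3 and 86.0 CPM in MeWo, mostly LUM. In MeWo LUM (74.2 CPM), DCN (4.19), COL1A1 (1.97) and COL3A1 (0.361) averaged higher than in A101D. COL1A2 (0.41 CPM), PDGFRA (0.0969) and THY1 (0.0449) averaged lower in MeWo. The list thus had no single direction, and its part in the PDGFRB difference was not tested.

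AXL and MERTK belong to the TAM family, whose ligands GAS6 and PROS1 bridge the receptors to phosphatidylserine on membranes. AXL lay between 328 and 390 CPM in MeWo, with a median of 356, and between 119 and 172 CPM in A101D, with a median of 143. The log2 difference was 1.37 ± 0.07 (limma adjusted p = 8.80e-12). MERTK lay between 24.3 and 32.2 CPM in MeWo (median 26.7) and between 3.63 and 6.18 CPM in A101D (median 4.47), a log2 difference of 2.60 ± 0.10 (limma adjusted p = 1.58e-13). Both receptors were thus higher in MeWo, with no overlap. TYRO3, the remaining TAM receptor, was lower in MeWo, at 94.8 ± 6.76 against 147 ± 7.46 CPM (mean ± SD), a log2 difference of -0.63 ± 0.05. Of the ligands, PROS1 was higher in MeWo (212 ± 9.79 against 98.8 ± 14.1 CPM). GAS6 stood at 5.67 ± 0.442 CPM in MeWo and 6.26 ± 0.903 CPM in A101D, and its difference did not pass the test over all libraries (limma adjusted p = 0.188). Within replicates 1-4 GAS6 did pass, lower in MeWo with no overlap (-0.32 ± 0.09, limma adjusted p = 0.00114), and within replicates 5-8 it did not (0.05 ± 0.09, limma adjusted p = 0.573).

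NGFR, the low-affinity neurotrophin receptor of neural crest cells, had the highest mean level per length in both lines. In MeWo it overlapped AXL with merged exons as the length, but not with the longest transcript. It lay between 546 and 787 CPM in A101D, with a median of 689, and between 292 and 324 CPM in MeWo, with a median of 303. NGFR differed by a log2 value of -1.13 ± 0.08 (limma adjusted p = 2.92e-10), and the lowest A101D library lay above the highest MeWo library. Of its ligands, BDNF averaged 27.3 ± 1.77 CPM in A101D against 7.88 ± 1.19 in MeWo, a log2 difference of -1.81 ± 0.08. NTF3 had 819 counts in A101D and none in MeWo, so it was at least 270-fold higher in A101D against a floor of 3 counts over the 8 MeWo libraries. NTF4 was too low to test, at mean levels of 0.0816 CPM or less in both lines. SORT1, a co-receptor for pro-neurotrophins, was higher in MeWo (373 ± 18.4 against 154 ± 7.67 CPM). NTRK2, the kinase receptor for BDNF, was lower in MeWo (0.440 ± 0.168 against 21.8 ± 10 CPM). A locus on the opposite strand, AC015656.1, shares 22.3% of the NGFR exon bases and had 431 counts in all libraries, beside 269354 for NGFR.

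EGFR and ERBB3 are members of the ERBB family. EGFR binds EGF, TGFA, HBEGF, AREG, BTC and EREG, while ERBB3 binds neuregulins and signals through a partner kinase because its own kinase is weak. EGFR lay between 19.8 and 31.6 CPM in A101D, with a median of 26.7, and between 2.60 and 4.06 CPM in MeWo, with a median of 3.26. The log2 difference was -2.95 ± 0.14 (limma adjusted p = 1.67e-12). ERBB3 lay between 474 and 758 CPM in A101D (median 607) and between 254 and 274 CPM in MeWo (median 266), with a log2 difference of -1.18 ± 0.11 (limma adjusted p = 2.32e-08). Both were higher in A101D in every library. ERBB2, the usual partner of ERBB3, was higher in MeWo (126 ± 5.89 against 89.5 ± 3.84 CPM). ERBB4 was higher in MeWo as well, at a low level of 1.72 ± 0.138 against 0.0653 ± 0.0687 CPM.

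TGFA, EGF, HBEGF and NRG1, ligands of the ERBB family, were higher in A101D. TGFA averaged 235 ± 52 CPM in A101D against 12.9 ± 0.418 in MeWo, a log2 difference of -4.15 ± 0.14. EGF stood at 20.4 ± 3.15 and 0.460 ± 0.126 CPM (log2 difference -5.45 ± 0.20), and HBEGF at 14.1 ± 0.985 and 10.2 ± 1.41 CPM (-0.48 ± 0.08). The neuregulin NRG1 stood at 10.6 ± 3.41 CPM in A101D against 1.84 ± 0.301 CPM in MeWo. NRG2 passed the test over all libraries (2.67 ± 1.55 against 0.977 ± 0.258 CPM), but its libraries overlapped. NRG2 was not called within replicates 1-4 (-0.32 ± 0.23, limma adjusted p = 0.199) and was lower in MeWo within replicates 5-8 (-2.21 ± 0.20). BTC was higher in MeWo with no overlap, at 2.53 ± 0.611 CPM in MeWo and 0.599 ± 0.349 CPM in A101D. AREG (higher in MeWo) and EREG (lower in MeWo) passed the test while their libraries overlapped between lines, and neither reached a mean of 1 CPM. AREG was called within replicates 1-4 (2.58 ± 0.32) and not within replicates 5-8, where its value had the other sign (-0.27 ± 0.22, limma adjusted p = 0.244). EREG was called within replicates 5-8 (-1.55 ± 0.25) and not within replicates 1-4 (0.31 ± 0.24, limma adjusted p = 0.237). EPGN was too low to test.

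MET, the receptor for hepatocyte growth factor, was higher in MeWo, and IGF1R, the receptor for insulin-like growth factors, was higher in A101D. MET lay between 202 and 234 CPM in MeWo, with a median of 221, and between 92.8 and 148 CPM in A101D, with a median of 129. MET differed by a log2 value of 0.85 ± 0.10 (limma adjusted p = 4.84e-07). IGF1R lay between 115 and 145 CPM in A101D (median 129) and between 79.7 and 90.5 CPM in MeWo (median 85.9), and its log2 difference of -0.60 ± 0.06 (limma adjusted p = 4.24e-08) was the smallest in size of the 10. HGF, the ligand of MET, had 8 counts in A101D and 21 in MeWo and was not tested. MST1R, the relative of MET that binds macrophage-stimulating protein, was higher in MeWo (6.04 ± 0.555 against 0.548 ± 0.159 CPM). IGF1 was low in both lines, at 0.977 ± 0.304 CPM in A101D and 0.0772 ± 0.0616 CPM in MeWo (log2 difference -3.72 ± 0.39), and IGF2 had 0 counts in A101D and 3 in MeWo. INSR, the insulin receptor, went against IGF1R: it was higher in MeWo, at 45.3 ± 4.01 against 6.46 ± 1.16 CPM (log2 difference 2.82 ± 0.10). IGF2R, which clears IGF2, was also higher in MeWo (680 ± 25.4 against 365 ± 12.6 CPM).

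The listed growth factors of the KIT, PDGFRB and FGFR1 families were set beside these receptors. The platelet-derived growth factors were taken as a family, without regard to which of them bind PDGFRB. KITLG, stem cell factor, was higher in MeWo together with KIT, at 54.7 ± 4.55 against 17.5 ± 0.692 CPM (log2 difference 1.64 ± 0.05). The ligands of the platelet-derived growth factor family split: PDGFB was lower in MeWo (7 counts in all, against 346 in A101D), whereas PDGFC (8.87 ± 1.02 against 3.92 ± 2.10 CPM) and PDGFD (3.79 ± 0.664 against 0.121 ± 0.0609 CPM) were higher. PDGFA did not pass the test over all libraries (limma adjusted p = 0.100), with 70.8 ± 5.66 CPM in MeWo and 59.2 ± 25.4 CPM in A101D. Within replicates 5-8 PDGFA was higher in MeWo with no overlap (0.89 ± 0.08, limma adjusted p = 1.39e-08), and within replicates 1-4 it did not pass (-0.13 ± 0.07, limma adjusted p = 0.109). All 3 fibroblast growth factors on the list were higher in A101D, where FGFR1 was low. FGF2 stood at 46.0 ± 6.63 CPM in A101D against 10.9 ± 1.25 CPM in MeWo, FGF1 at 4.01 ± 1.18 against 0.608 ± 0.264 CPM, and FGF5 at 4.76 ± 1.22 against 1.80 ± 0.314 CPM. FGFR4 was detected in both lines (29.6 ± 1.88 CPM in MeWo and 22.3 ± 5.73 CPM in A101D) and its libraries overlapped. Of 26 listed ligands, 21 could be tested and 19 passed, 6 higher and 13 lower in MeWo. That is 90.5%, against 78.5% of all genes tested (37.5% higher and 41% lower), and the ligands' median log2 difference was -1.28, beside -0.04 over all genes. The median depended on the replicate set. It was -0.32 within replicates 1-4 and -1.55 within replicates 5-8, beside -0.05 and -0.04 over all genes.

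**Figure D2:**
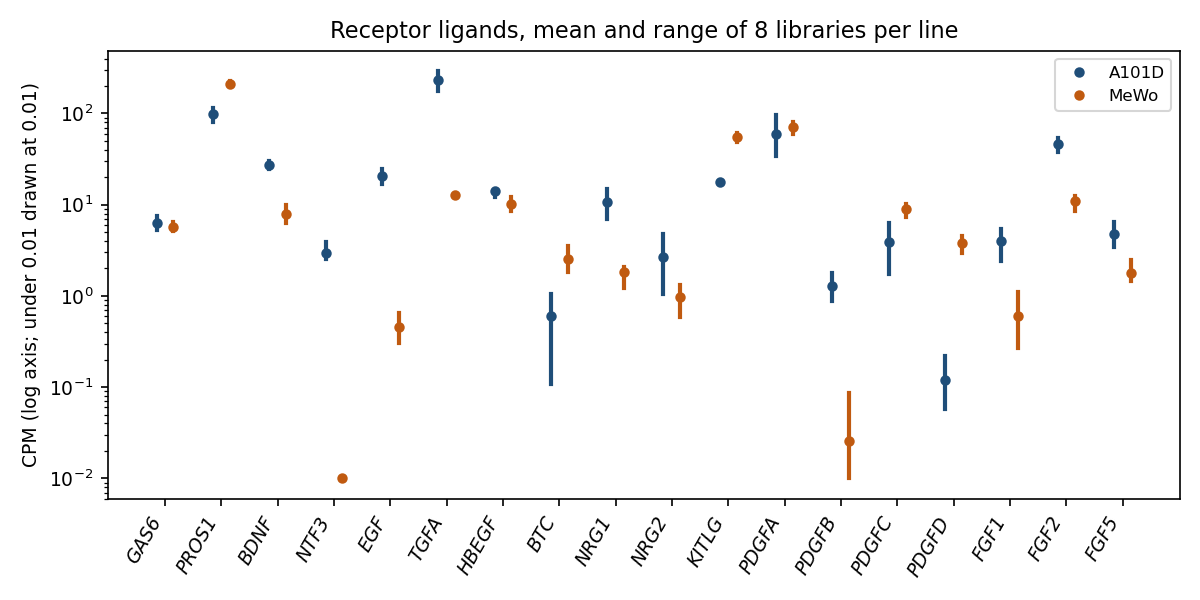
CPM (log axis) of the 18 receptor ligands that reached a mean of 1 CPM in at least 1 line; points are means and bars the range of 8 libraries per line, and values under 0.01 are drawn at 0.01. TGFA and EGF sit far higher in A101D, KITLG, PROS1 and PDGFD higher in MeWo, and GAS6, PDGFA and NRG2 overlap.

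Levels of different receptors were compared per kb of merged exons, a scale on which CPM are divided by gene length. In A101D the order was NGFR (163 ± 24.3 CPM per kb, SD, n = 8), ERBB3 (67.6 ± 15.1), AXL (27.3 ± 3.86), MET (17.7 ± 3.54), IGF1R (9.33 ± 0.959), EGFR (2.09 ± 0.371), PDGFRB (1.06 ± 0.191), MERTK (0.973 ± 0.168), FGFR1 (0.0708 ± 0.0159) and KIT (0.0441 ± 0.0139). The neighbours PDGFRB and MERTK, and FGFR1 and KIT, overlapped over the 8 libraries, and the other neighbours did not. In MeWo the order was NGFR (74.0 ± 2.99 CPM per kb), AXL (70.0 ± 3.91), MET (31.3 ± 1.55), ERBB3 (29.3 ± 0.765), KIT (14.2 ± 0.826), IGF1R (6.14 ± 0.292), MERTK (5.91 ± 0.717), FGFR1 (4.59 ± 0.215), EGFR (0.268 ± 0.0425) and PDGFRB (0.0430 ± 0.0134). Here NGFR and AXL, MET and ERBB3, and IGF1R and MERTK overlapped. KIT moved from last place in A101D to the middle of the order in MeWo, and ERBB3 fell below AXL and MET there. With the longest transcript as the length, ERBB3 stood above MET, and FGFR1 above MERTK and IGF1R, in MeWo. On that scale NGFR and AXL, and ERBB3 and MET, did not overlap in MeWo, and FGFR1 and KIT did not overlap in A101D.

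**Figure D3:**
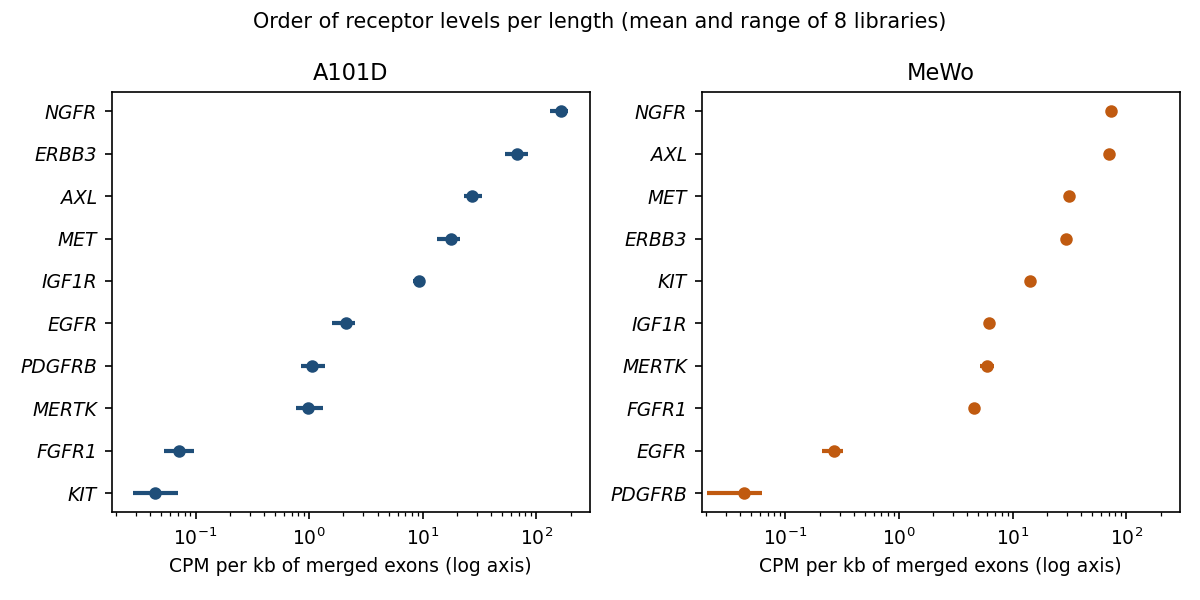
CPM per kb of merged exons (log axis) of the receptors in A101D and MeWo, ordered by the mean; points are means and lines the range of 8 libraries. NGFR leads in both lines, and KIT is last in A101D but not in MeWo.

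The line difference was then read within each replicate set. All 10 members passed the test in replicates 1-4, against 79.4% of all genes (37.1% higher and 42.3% lower), and all 10 in replicates 5-8, against 84.2% (40.3% higher and 43.9% lower). No member's libraries overlapped between lines in either set, against 72.9% and 79.2% of all genes without overlap. The log2 difference (MeWo minus A101D) of FGFR1 was 6.04 ± 0.16 in replicates 1-4 and 6.05 ± 0.16 in replicates 5-8. That of MERTK was 2.62 ± 0.09 and 2.59 ± 0.09, and that of EGFR -3.01 ± 0.09 and -2.88 ± 0.10. MET had the largest shift among the abundant members, from 1.16 ± 0.04 to 0.53 ± 0.04. ERBB3 moved from -0.90 ± 0.03 to -1.45 ± 0.03, NGFR from -0.97 ± 0.03 to -1.28 ± 0.03, IGF1R from -0.40 ± 0.03 to -0.79 ± 0.03, and AXL from 1.20 ± 0.05 to 1.54 ± 0.05. The gap between lines was thus narrower for MET and wider for ERBB3, NGFR, IGF1R and AXL in replicates 5-8.

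**Figure D4:**
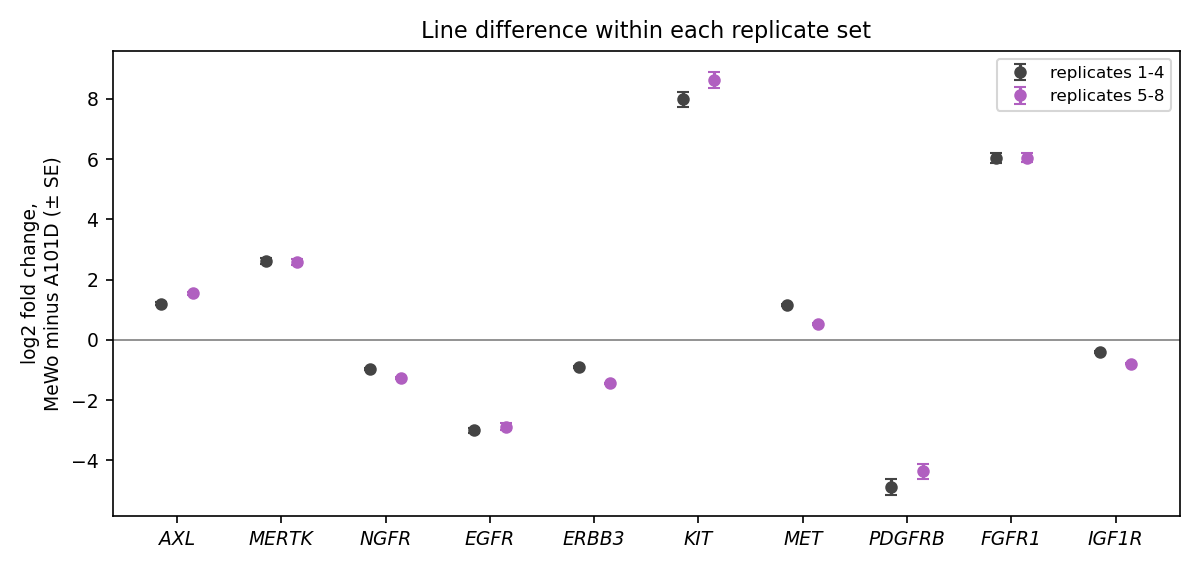
Log2 fold change between lines (MeWo minus A101D, ± SE) of each receptor within replicates 1-4 and within replicates 5-8, 4 libraries per line and set. The sign is the same in both sets for all 10, and the MET value falls from 1.16 to 0.53.

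Within A101D, the sets differed for most members. ERBB3, MET, NGFR and IGF1R were higher in replicates 5-8, and EGFR, PDGFRB, AXL and MERTK were lower. This made 8 of 10 members past the threshold, against 65.6% of all genes tested (33.1% higher and 32.4% lower), and 7 of 10 without overlap, against 59.6%. ERBB3 had 486, 495, 474 and 480 CPM in replicates 1-4 and 758, 737, 738 and 719 CPM in replicates 5-8. The set difference was 0.61 ± 0.03 on the log2 scale (replicates 5-8 minus 1-4; n = 4 per set; limma adjusted p = 1.22e-22), with the 4 later-numbered libraries all above the others. MET had 102, 113, 92.8 and 99.5 CPM in replicates 1-4 and 148, 147, 148 and 145 CPM in replicates 5-8, a log2 difference of 0.53 ± 0.04 (limma adjusted p = 2.59e-14). NGFR had 580, 546, 637 and 585 CPM against 768, 787, 742 and 777 CPM, a log2 difference of 0.39 ± 0.03 (limma adjusted p = 8.69e-14). IGF1R had 120, 120, 117 and 115 CPM against 143, 145, 144 and 138 CPM (0.27 ± 0.03, limma adjusted p = 1.44e-09). None of these 4 receptors had overlapping sets.

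EGFR, AXL and PDGFRB, receptors known from dedifferentiated cells, were lower in replicates 5-8 of A101D. EGFR had 30.5, 30.1, 31.6 and 29.2 CPM in replicates 1-4 and 24.2, 21.7, 22.4 and 19.8 CPM in replicates 5-8. It fell by 0.47 ± 0.05 on the log2 scale (limma adjusted p = 4.57e-10). AXL had 153, 151, 172 and 157 CPM against 119, 120, 121 and 135 CPM, and fell by 0.35 ± 0.05 (limma adjusted p = 3.15e-06). PDGFRB had 9.80, 7.78, 9 and 8.28 CPM against 6.01, 6.63, 6.53 and 6.54 CPM, and fell by 0.44 ± 0.09 (limma adjusted p = 3.16e-05). EGFR, AXL and PDGFRB did not overlap between sets. With limma-trend in place of voom weights, PDGFRB missed the threshold (limma adjusted p = 0.0572).

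MERTK in A101D had 4.94, 6.18, 4.06 and 4.86 CPM in replicates 1-4 and 3.63, 4.61, 3.96 and 4.34 CPM in replicates 5-8, and these sets overlapped. Its log2 difference of -0.27 ± 0.12 passed narrowly (limma adjusted p = 0.0414). The call was lost without replicate 1 (adjusted p = 0.0609 in limma), 2 (0.223), 4 (0.0545), 5 (0.150), 7 (0.102) or 8 (0.0642) of A101D, and without replicate 2 the value was -0.17. It was also lost with median-of-ratios factors (0.0632), upper-quartile factors (0.140), total counts only (0.197, log2 difference -0.17) and no low-count filter (0.0681). KIT (-0.50 ± 0.36, limma adjusted p = 0.223) and FGFR1 (-0.10 ± 0.22, limma adjusted p = 0.716) did not pass at their low counts in A101D. With limma-trend, KIT did pass (-0.44, limma adjusted p = 0.00235).

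Within MeWo, the sets differed for fewer members. MERTK and IGF1R were lower and KIT was higher in replicates 5-8, which made 3 of 10 past the threshold against 13.6% of all genes tested (6.16% higher and 7.45% lower). MERTK had 32.2, 32.0, 30.6 and 27.7 CPM in replicates 1-4 and 25.6, 25.2, 24.6 and 24.3 CPM in replicates 5-8. It fell by 0.30 ± 0.05 on the log2 scale (limma adjusted p = 0.000168), with no overlap. IGF1R had 89.5, 86.7, 89.4 and 90.5 CPM against 79.7, 81.3, 85.1 and 82.9 CPM, and fell by 0.11 ± 0.04 (limma adjusted p = 0.0229). Without MeWo replicate 5 its adjusted p was 0.0677 in limma, and with total counts as the only scaling it was 0.135. KIT had 79.6, 77.0, 75.2 and 70.9 CPM against 83.6, 84.1, 80.2 and 83.0 CPM, a log2 difference of 0.13 ± 0.04 (limma adjusted p = 0.0156). The KIT call was lost without MeWo replicate 3 (adjusted p = 0.124 in limma), 4 (0.203, log2 difference 0.07), 6 (0.119), 7 (0.0529) or 8 (0.096). It was also lost with median-of-ratios factors (0.0745), without the low-count filter (0.148) and with limma-trend (0.571).

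The remaining 7 members did not pass in MeWo. EGFR had the largest value among them, -0.33 ± 0.13 (limma adjusted p = 0.0759), and it passed without MeWo replicate 2 (-0.41, adjusted p = 0.0438 in limma) and with limma-trend (0.00948). MET stood at -0.10 ± 0.04 (limma adjusted p = 0.0964) and passed without MeWo replicate 4 (0.0118) or 6 (0.0424) and with median-of-ratios factors (0.0481). ERBB3 (0.06 ± 0.03, limma adjusted p = 0.195) and NGFR (0.08 ± 0.04, 0.143) passed with total counts only, at 0.0163 and 0.0445. AXL (-0.01 ± 0.05, limma adjusted p = 0.911), PDGFRB (0.07 ± 0.35, 0.946) and FGFR1 (-0.09 ± 0.04, 0.173) passed under none of the alternatives run. MERTK, ERBB3, KIT and IGF1R had sets that did not overlap, 4 of 10 members, against 16.6% of all genes.

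**Figure D5:**
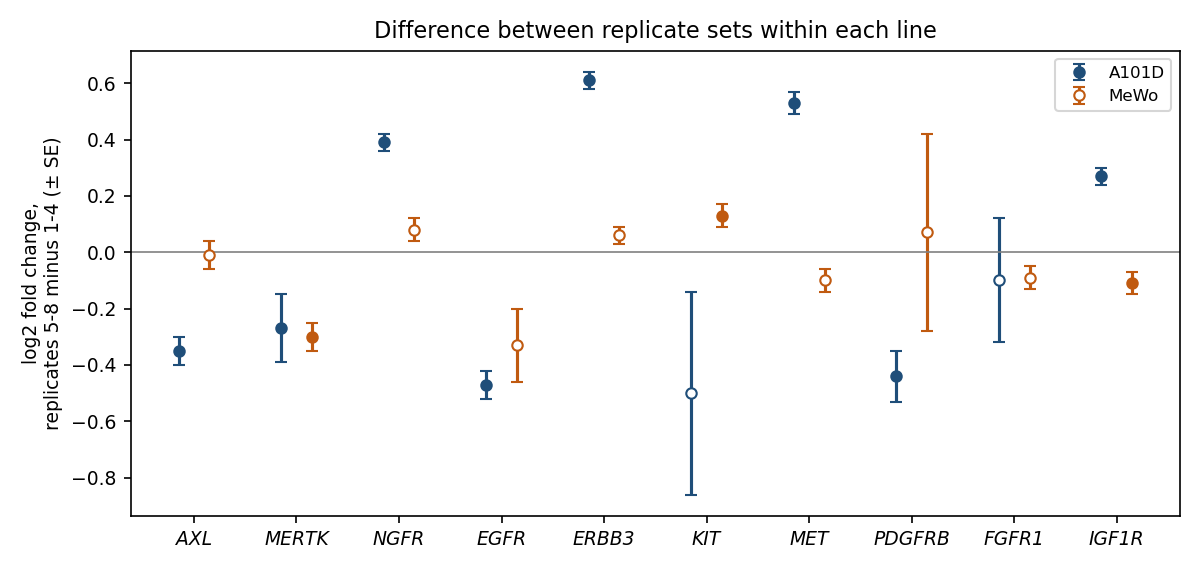
Log2 fold change between replicate sets (5-8 minus 1-4, ± SE) of each receptor within A101D and within MeWo, 4 libraries per set; filled points passed an adjusted p of 0.05 and open points did not. ERBB3 and MET stand at 0.61 and 0.53 in A101D and near 0 in MeWo, and MERTK lies at -0.27 and -0.30.

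Whether the set difference itself differed between lines was tested as an interaction. It passed for 5 of 10 members, against 49.1% of all genes tested. Of these 5, AXL was positive (25.9% of all genes) and 4 were negative (23.2%). The difference of the set differences (MeWo minus A101D, log2) was -0.63 ± 0.06 for MET (limma adjusted p = 3.43e-12), -0.55 ± 0.04 for ERBB3 (3.94e-15) and -0.39 ± 0.05 for IGF1R (6.58e-09). It was -0.31 ± 0.05 for NGFR (limma adjusted p = 7.80e-07) and 0.34 ± 0.07 for AXL (0.000315). In IGF1R the sets moved in opposite directions, higher in A101D and lower in MeWo for replicates 5-8. MERTK (-0.03 ± 0.13, limma adjusted p = 0.867), EGFR (0.13 ± 0.14, 0.455), PDGFRB (0.51 ± 0.37, 0.263), KIT (0.63 ± 0.36, 0.151) and FGFR1 (0.01 ± 0.22, 0.979) did not pass. The share of mitochondrial counts ran from 1.71% to 1.92% in replicates 1-4 of A101D and from 1.93% to 2.33% in replicates 5-8. Genes with at least 1 count numbered 31281 to 33107 and 34020 to 34607 in these sets. In MeWo the mitochondrial share ran from 1.32% to 1.45% in replicates 1-4 and from 1.28% to 1.39% in replicates 5-8. The genes detected there numbered 30256 to 34471 and 30066 to 31433. The part of the mitochondrial share or of the genes detected in the set differences was not tested. Between these sets of A101D, replicates 1-4 and then 5-8, the summed markers lay at 118 to 124 and 162 to 191 CPM for the epithelial list, and at 108 to 125 and 147 to 156 CPM for the endothelial list. They lay at 918 to 1031 and 579 to 649 CPM for the fibroblast list, and at 2871 to 3463 and 2494 to 2742 CPM for the melanocyte lineage list. The fibroblast sum fell through COL1A2 (means 956 and 596 CPM). Every other fibroblast marker averaged higher in replicates 5-8, at 2.08 CPM or less. In the melanocyte lineage list PMEL (204 and 239 CPM) and TYR (1.39 and 1.64 CPM) rose. DCT (1652 and 1332 CPM) and the rest of that list fell. The part of these lists in the set differences was not tested.

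Between the A101D sets 16 of 21 ligands tested passed, 10 higher and 6 lower in replicates 5-8. That is 76.2%, against 65.6% of all genes tested, and the median was 0.35 on the log2 scale, beside 0.01 over all genes. PDGFA fell from 82.0 ± 10.6 to 36.4 ± 2.13 CPM (SD, n = 4), TGFA from 283 ± 7.74 to 188 ± 12.5 CPM, and NRG1 rose from 7.49 ± 0.770 to 13.7 ± 0.718 CPM. Of the other EGFR ligands EGF fell (-0.39 ± 0.06 on the log2 scale), while AREG (2.36 ± 0.33), BTC (1.66 ± 0.30), EREG (0.89 ± 0.22) and HBEGF (0.15 ± 0.06) rose. In MeWo 8 of 21 passed, 2 higher and 6 lower (38.1%, against 13.6% of all genes tested), with BDNF at -0.37 ± 0.09 and HBEGF at -0.35 ± 0.07 on the log2 scale. KITLG fell by 0.18 ± 0.04 there.

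Partner receptors, the relatives and co-receptors of the members, gave 13 of 17 that could be tested. All 13 passed between lines, against 78.5% of all genes tested, 8 higher and 5 lower in MeWo. Within A101D 9 passed (69.2%, against 65.6% of all genes), among them NTRK2, which was 12.5 ± 0.622 CPM in replicates 1-4 and 31.0 ± 2.30 CPM in replicates 5-8 (log2 difference 1.31 ± 0.06), and FGFR4, which fell by 0.70 ± 0.06. Within MeWo 2 passed (15.4%, against 13.6% of all genes), both lower: INSR at -0.23 ± 0.04 and TYRO3 at -0.18 ± 0.04. TYRO3 was lower in replicates 5-8 of both lines, as was MERTK.

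Most other receptor tyrosine kinases were lower in MeWo. Of 26 tested among 34 listed, 22 passed between lines (84.6%, against 78.5% of all genes tested), 20 of them lower in MeWo, with a median log2 difference of -1.89 beside -0.04 over all genes. FLT1 and KDR, receptors for vascular endothelial growth factor, stood at 158 ± 32.4 and 117 ± 8.30 CPM in A101D and at 0.976 ± 0.285 and 1.65 ± 0.257 CPM in MeWo. TEK, the angiopoietin receptor, stood at 7.09 ± 5.14 CPM in A101D and 0.0372 ± 0.0417 CPM in MeWo. KDR and TEK are also on the list of 5 endothelial markers, of which 3 reached a mean of 1 CPM in A101D. The third was VWF, at 9.77 CPM in A101D and 1.09 CPM in MeWo, and within A101D at 3.71 CPM in replicates 1-4 and 15.8 CPM in replicates 5-8. PECAM1 and CDH5 stood at 0.350 and 0.732 CPM in A101D. The summed list lay between 108 and 156 CPM in A101D and between 3.01 and 3.45 CPM in MeWo, and its part in these differences was not tested. AATK (191 ± 7.18 against 4.30 ± 1.44 CPM) and EPHA5 (10.2 ± 1.04 against 1.39 ± 0.321 CPM) were the 2 higher in MeWo. Within A101D 18 of the 26 passed (69.2%, against 65.6% of all genes), 14 of them higher in replicates 5-8, with TEK at 2.34 ± 0.12 and EPHA4 at 1.29 ± 0.06 on the log2 scale. Within MeWo 3 passed (11.5%, against 13.6%), of which DDR2, a collagen receptor, was higher (0.24 ± 0.04) and EPHA4 lower (-0.18 ± 0.06).

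Adaptors, which link the activated receptors to RAS and PI3K, split evenly: all 18 passed between lines, against 78.5% of all genes tested, 9 in each direction. GRB2 (334 ± 8.44 against 120 ± 3.8 CPM), IRS1 (164 ± 6.39 against 65.4 ± 24.0 CPM) and GAB2 (243 ± 8.32 against 99.5 ± 21.3 CPM) were higher in MeWo. CRKL (129 ± 3.71 against 474 ± 97.2 CPM), SHC1 (220 ± 19.3 against 555 ± 63.2 CPM) and IRS2 (119 ± 5.41 against 220 ± 39.5 CPM) were lower. IRS1 and IRS2, the docking proteins of IGF1R and INSR, thus differed in opposite directions. In A101D 14 of 18 differed between sets (77.8%, against 65.6% of all genes), 12 of them higher in replicates 5-8, with IRS1 at 1.03 ± 0.05 and SOS1 at 0.91 ± 0.05 on the log2 scale. In MeWo 4 did (22.2%, against 13.6%), among them SRC (-0.28 ± 0.06) and SHC1 (-0.21 ± 0.04).

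Inhibitors and sheddases of the receptors gave 15 of 17 past the threshold between lines (88.2%, against 78.5% of all genes tested), 4 higher and 11 lower in MeWo. ERRFI1, which binds and blocks the kinases of EGFR and its family, averaged 221 CPM in A101D (range 118 to 341) and 19.7 CPM in MeWo (range 17.3 to 21.1). SPRY4, a feedback inhibitor of MAPK signalling, stood at 200 ± 9 and 46.9 ± 2.77 CPM, and the receptor phosphatase PTPRJ at 159 ± 31.1 and 65.1 ± 5.08 CPM. SPRY1 (7.70 ± 0.645 against 3.51 ± 0.312 CPM) and LRIG3 (25.7 ± 1.29 against 13.8 ± 2.72 CPM) were higher in MeWo. LRIG2 was called higher in MeWo over all libraries (31.1 ± 1.5 against 27.3 ± 3.34 CPM), but its libraries overlapped, and within replicates 5-8 it was not called (0.01 ± 0.05, limma adjusted p = 0.805). In A101D 15 of 17 differed between sets (88.2%, against 65.6% of all genes). ERRFI1 rose from 128 ± 9.15 to 314 ± 24.9 CPM and GRB10, which binds IGF1R and INSR, from 124 ± 3.93 to 292 ± 10.3 CPM. In MeWo 5 did (29.4%, against 13.6%), with SH2B3 at -0.22 ± 0.03 and LRIG1 at -0.24 ± 0.05 on the log2 scale.

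The melanoma states were read from 2 further lists. All 8 melanocytic genes passed between lines, against 78.5% of all genes tested, and 7 of them were higher in MeWo, as KIT was. ERBB3, named above with KIT for the pigment cell programme, went the other way (log2 difference -1.18 ± 0.11). PMEL, the pigment granule protein, stood at 6667 ± 202 CPM in MeWo and 222 ± 23.5 CPM in A101D. TYR, the rate-limiting enzyme of melanin synthesis, stood at 299 ± 14.5 and 1.52 ± 0.229 CPM, MITF at 562 ± 28.1 and 182 ± 38.7 CPM, and MLANA at 176 ± 10.2 and 23.6 ± 7.25 CPM. SOX10 (0.29 ± 0.03), PAX3 (0.20 ± 0.07) and TFAP2A (1.21 ± 0.04) were higher by these log2 differences, while DCT was lower (506 ± 40.5 against 1492 ± 218 CPM). S100B, a melanocyte lineage marker that is not among these 8 genes, was also lower in MeWo. It lay between 122 and 139 CPM there and between 502 and 696 CPM in A101D. All 10 genes of the dedifferentiated state passed as well, and 7 of them were lower in MeWo, among them WNT5A, ZEB1, TGFBI, NT5E and TEAD4. WNT5A stood at 68.8 ± 5.11 CPM in A101D and 0.0853 ± 0.0614 CPM in MeWo, TGFBI at 662 ± 96.1 and 129 ± 8.63 CPM, and NT5E at 161 ± 32.3 and 58.1 ± 2.95 CPM. The AP-1 genes JUN (0.40 ± 0.10), FOSL1 (0.69 ± 0.06) and FOSL2 (1.01 ± 0.07) were higher in MeWo. SOX9 (at most 0.522 CPM in any library), JUN and PAX3 overlapped between lines, and within replicates 1-4 neither JUN (0.10 ± 0.05, limma adjusted p = 0.0616) nor PAX3 (0.02 ± 0.05, limma adjusted p = 0.631) was called. EGFR and PDGFRB therefore lay on the side of the 7 lower genes, whereas AXL, often grouped with them, lay on the side of the AP-1 genes and of MITF.

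Between the A101D sets 6 of 8 melanocytic genes passed (75%, against 65.6% of all genes tested), 5 of them lower in replicates 5-8. MITF fell by 0.54 ± 0.06 and MLANA by 0.73 ± 0.12 on the log2 scale, and PMEL rose by 0.23 ± 0.05. SOX10 stood at -0.08 ± 0.03, a value whose sign turned with total counts as the only scaling (0.02, limma adjusted p = 0.621). Of the 10 genes of the dedifferentiated state 9 passed (90%), 3 higher (NT5E and ZEB1 among them) and 6 lower, among them TEAD4 (-0.75 ± 0.05) and JUN (-0.50 ± 0.05). ERBB3 thus rose while MITF fell in these libraries, and AXL fell together with MITF. In MeWo 1 of 8 melanocytic genes passed (TFAP2A, 0.11 ± 0.03) and 2 of 10 of the others, both lower (FOSL1 and TEAD4), or 12.5% and 20% against 13.6% of all genes.

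The genes whose log2 CPM followed each receptor most closely were listed within a line, over its 8 libraries. In A101D ERBB3 was followed by KDM7A-DT, PRKAB2 and ELMO2 (Pearson r = 0.999 each), and 2745 of 10096 genes compared reached an r of 0.9. AXL was followed by TPM1, TGFBI and COL4A1 (r = 0.993, 0.992 and 0.992), NGFR by CCN1, POU3F2 and FLNA (0.994, 0.993 and 0.993), EGFR by NUP214 (0.993), MET by ALDH1B1 (0.998), IGF1R by ZNF383 and IL17RA (0.998 each) and PDGFRB by MCOLN1 (0.990). These libraries share the split into sets, which the r values carry. MERTK, whose A101D sets overlapped, had 37 genes at an r of 0.9, led by IRAK4 (0.970). In MeWo the numbers were smaller for AXL, NGFR and MET and larger for MERTK: 4 of 9647 genes for AXL (THBD first, 0.924), 60 for NGFR (GSDMD, 0.982), 164 for KIT, 158 for MET (SLC25A24 and FAM91A1, 0.974 each) and 699 for MERTK (CCT6A and DEGS1, 0.994 each). These values are descriptions with no test.

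Total counts ran from 28910881 to 38961862 per library in A101D and from 31217443 to 38722489 in MeWo. All 7 melanocyte lineage markers averaged at least 1 CPM in both lines, with summed levels between 2494 and 3463 CPM (A101D) and between 8200 and 9067 CPM (MeWo). The MeWo sum was mostly PMEL (mean 6667 CPM, against 222 CPM in A101D). MITF, SOX10, MLANA and TYR also averaged higher in MeWo. DCT (506 against 1492 CPM) and S100B (132 against 608 CPM) averaged lower in MeWo than in A101D. The 6 blood markers summed to at most 3.82 CPM. Epithelial markers summed to 118 to 191 CPM in A101D, through KRT18 and KRT8, and to at most 4.11 CPM in MeWo. Within each set, pairs of libraries differed beyond counting error (lowest chi-square divided by its degrees of freedom 1.97), so none was treated as a duplicate.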

How the data were processed

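The authors deposited whole-number counts per gene for 16 libraries, with identifier and count joined in 1 cell, which were separated here. The submitters' processing notes name Trimmomatic 0.39-1, STAR 2.7.1a, featureCounts 2.0.0 and GRCh38, with no role or order. The strand setting is not given in the sources used here. Symbols came from a gene name table (60357 of 60676 identifiers) and positions and lengths from GENCODE v29 (GRCh38). Columns were mapped by line and replicate number.

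Library sizes were scaled by TMM (trims of 30% and 5%). A gene was tested with at least 0.298 CPM (10 counts at the median depth) in 4 libraries and 15 counts in all, 21569 genes. limma 3.58.1 in R 4.3.3 was used with voom weights, robust empirical Bayes and Benjamini-Hochberg adjustment (threshold 0.05), in a fit of 2 lines and a fit of 4 groups (line by replicate set), and was tested on simulated data. A count model was not run, because the deposited columns, as joined cells, did not pass as counts. The separated values are whole-number counts, and voom was run on them.

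The members and lists were chosen with earlier results of these data known. All members were named. From each other signalling list the 3 largest and 3 smallest called line differences and the 2 largest called set differences per line were named, at 5 CPM or more in a line, with all ligands and all state genes, except a few genes that are not reported here. For likeness the 3 genes of highest r over 8 libraries, at 10 CPM or more, were taken. Alternatives were 3 other scalings, 2 other filters, limma-trend, a threshold of 0.01, each replicate left out (for the line difference only MeWo replicate 2), the replicate block, a 4-group average and another gene length.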

Additional observations from a re-analysis of the deposited data

Results flagged for a closer look

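In 3 of 60 groups of 4 or 8 libraries checked, all 3 of them groups of 4, 1 library stood apart by Dixon's criterion at the 95% level, and chance gives about 1 in 20 such groups. AXL in A101D replicate 8 was 135 CPM, while the other libraries of replicates 5-8 lay between 119 and 121 CPM. NGFR in MeWo replicate 6 was 299 CPM, with the others between 319 and 324 CPM. PDGFRB in A101D replicate 5 was 6.01 CPM (197 counts, exact 95% counting interval 5.20 to 6.91), with the others between 6.53 and 6.63 CPM.

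The set difference (replicates 5-8 minus 1-4) differed between the lines for 5 receptors by the interaction test in limma. The differences (MeWo minus A101D, log2) were 0.34 for AXL, -0.31 for NGFR, -0.55 for ERBB3, -0.63 for MET and -0.39 for IGF1R. No explanation of these was tested.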

How the results depend on the processing

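Every member's line difference, over all libraries and within each replicate set, kept its direction and its side of the threshold under all alternatives run. Of all member values under alternatives 947 kept their side of the threshold, 24 lost the call, 9 gained it and 0 reversed. Values past the threshold on neither side could still change sign, as 95 of those examined did. All changes of call lay in the set differences of A101D (MERTK, PDGFRB, KIT), of MeWo (EGFR, ERBB3, IGF1R, KIT, MET, NGFR) and in the interaction of KIT (0.57, limma adjusted p = 0.00652 with limma-trend). Among other named genes 105 values lost the call, 37 gained it and 1 reversed: the A101D set difference of SOX10 was 0.0175 with total counts only (limma adjusted p = 0.621), beside -0.08. The number of genes that differed between the MeWo sets was 2935, 1892 without the low-count filter and 1595 at a threshold of 0.01. Leaving out 1 library of MeWo gave 2023 to 3594. With total counts only, the median A101D set difference over all genes was 0.11, beside 0.01 with TMM.

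The replicate block changed no member's call. With it 17109 genes differed between lines (16937 without), 17126 in replicates 1-4 and 18169 in replicates 5-8, and 10649 passed the interaction test. The set differences could not be fitted with the block, because each number lies in 1 set. Deviations from the line-by-set means of same-numbered libraries correlated at -0.06 to 0.14, and 1 of 8 numbers matched best with its own. These values gave no sign of pairing by number. They cannot show whether same-numbered libraries shared a culture, day or batch.

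The count models planned for columns that pass as counts (edgeR and DESeq2) were not run. KIT and FGFR1 in A101D and PDGFRB in MeWo rest on few counts, which limits their set differences.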
